A study of Homo sapiens with 6 samples.

Results

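This account follows 10 interferon-induced antiviral genes, IFITM1, IFITM2, IFITM3, BST2, IFI6, IFI27, IFI44, IFI44L, IFI35 and IFI16, in A549 cells. They were taken by symbol from the deposited table, where each had 1 row, out of 58302 gene rows in all. All 10 passed the filter on low counts, as did 15631 genes in total. RNA was sequenced from A549, a human lung adenocarcinoma line at passages 6 to 8, in 3 libraries of cells transfected with SNHG5, called overexpression here, and 3 of cells transfected with vector, called control. SNHG5 is a long non-coding RNA and small nucleolar RNA host gene, and the series title concerns migration, invasion and epithelial-mesenchymal transition. The sources used here do not describe the construct or say whether cells were selected or cloned, and no untransfected cells or interferon-treated cells were analysed here. The 10 genes were chosen with the difference between these groups already known, so that difference is given as a description. Counts of the genes past a threshold are printed beside the same share over all genes, and support nothing.

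Interferons are secreted proteins that bind receptors on the cell surface and activate the kinases JAK1 and TYK2. These activate transcription factors, STAT2 and IRF9 among them, that bind the interferon-stimulated response element (ISRE). The gamma-activated site (GAS) is another DNA element of interferon-induced genes. The 10 genes are among those that interferon induces. IFITM proteins sit in membranes and hinder the fusion of enveloped viruses, IFITM1 mostly at the cell surface and IFITM2 and IFITM3 mostly in endosomes. BST2, or tetherin, holds budding virus particles at the cell surface. IFI6 and IFI27 are small related membrane proteins, IFI44 and IFI44L are a pair of related cytoplasmic proteins, IFI35 binds NMI, and IFI16 is a nuclear sensor of DNA.

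The start regions of these genes show how differently the same element is placed, and the stretches below carry the matches. Promoter windows of 300 bases, from 250 before to 50 after the transcript start, were taken from RefSeq (GRCh38.p14) and matched 9 of the 10 genes. The exception was IFITM2. The ISRE core was searched as GAAA, any 2 bases and GAAA again (TTTC, any 2 bases and TTTC on the other strand), and the GAS as TTC, any 3 bases and GAA, which reads the same on both strands. In the lines below, capitals mark the ISRE core, or the GAS for IFI35, and each line reads 5′ to 3′ along the gene's own strand. The stretches of IFITM1, IFITM3, BST2 and IFI35 were kept to at most 30 bases because they lie in annotated exons, and that of IFITM1 shows 1 of its 2 matches.
IFI6 (chr1:27672256-27672368, minus strand): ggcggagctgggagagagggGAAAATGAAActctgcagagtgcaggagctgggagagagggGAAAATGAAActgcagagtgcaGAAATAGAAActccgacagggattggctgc
IFI27 (chr14:94110608-94110670, plus strand): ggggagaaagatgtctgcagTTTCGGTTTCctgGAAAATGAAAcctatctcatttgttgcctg
IFI44L (chr1:78620264-78620404, plus strand): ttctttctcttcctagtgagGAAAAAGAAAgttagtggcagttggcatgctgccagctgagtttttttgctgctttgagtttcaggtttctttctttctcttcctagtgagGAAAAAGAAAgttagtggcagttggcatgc
IFI44 (chr1:78649751-78649788, plus strand): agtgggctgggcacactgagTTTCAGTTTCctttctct
BST2 (chr19:17405738-17405767, minus strand): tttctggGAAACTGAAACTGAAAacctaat
IFITM3 (chr11:320885-320913, minus strand): gGAAAAGGAAActgttgaGAAACCGAAAc
IFITM1 (chr11:314024-314053, plus strand): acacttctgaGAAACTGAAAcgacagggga
IFI35 (chr17:43006752-43006780, plus strand): aggcagggatTTCACGGAAatgaaagtgg

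Of the 9 genes with a window, 7 held an ISRE core and 6 held at least 2 matches to it. Among all 35116 RefSeq promoter windows of this length, 3.57% held the core and 0.259% held it 2 or more times, and 4.38% of all genes had a window with the core. IFI6 had 3 matches, beginning at positions -156, -115 and -93 from the start. The BST2 matches overlap each other by 4 bases, and its window also holds the starts of the neighbouring genes BISPR and MVB12A, which run the other way. In IFI44L a repeated stretch carries the same match at positions -164 and -73. A GAS was found in 4 of the 9 genes, IFITM1, BST2, IFI27 and IFI35, against 7.66% of all windows and 9.38% of all genes, and in IFITM1, BST2 and IFI27 it overlaps an ISRE core. For IFI16 neither pattern of letters was found in its 2 windows. A match is a run of letters in the reference and no measurement of binding.

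**Figure D1:**
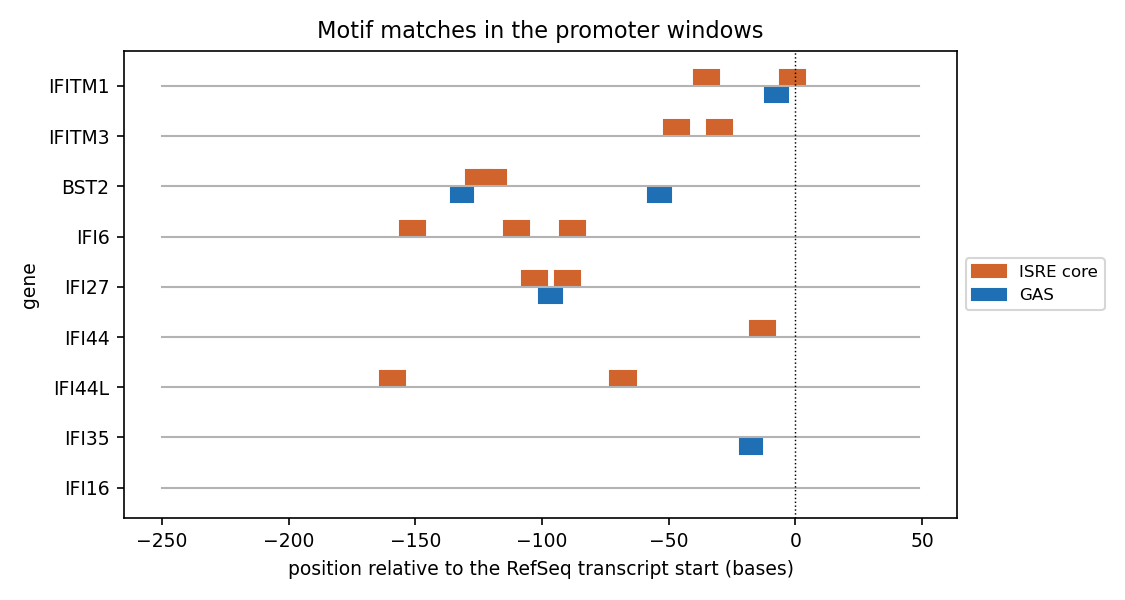
Positions of ISRE core and GAS matches in the first RefSeq promoter window of each gene. The horizontal axis is the distance in bases from the transcript start, each grey line is a window of 300 bases, and boxes are matches. IFI6 shows 3 ISRE boxes, IFI16 shows no box, and IFI35 a GAS box only.

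The libraries held 13378079 to 16999604 counts, and the limit set by a count of 0, which is 3 counts, lay at 0.174 to 0.218 CPM. CPM is the read count of a gene scaled to the library total after normalization, and this limit covers counting error only. SNHG5 itself overlapped between the groups, at 62.8 to 153 CPM in the libraries labelled overexpression and 55.0 to 101 CPM in the controls (log2 difference 0.66, SE 0.37, edgeR adjusted p 0.746). Its lowest overexpression value belonged to the library labelled overexpression 3, so each direction given is between libraries as labelled. Of 6 epithelial markers, keratin KRT8 was at 1604 ± 555 CPM in overexpression and 2520 ± 120 CPM in control (SD, n = 3 each), and EPCAM at 3.67 and 2.95 CPM. The epithelial list summed to 3684 to 6078 CPM in overexpression and 6243 to 6726 CPM in control, without overlap, and its part in the results was not tested. Taken singly, KRT8 did not overlap between the groups, while KRT18, KRT7, KRT19, EPCAM and CDH1 did. Of 6 immune markers PTPRC, CD3E and LYZ had 0 counts in every library. The immune list summed to 27.4 to 39.4 CPM in overexpression and 75.3 to 93.0 CPM in control, nearly all of it from CD68, a lysosomal protein that is not restricted to immune cells. The 5 fibroblast markers summed to 2.91 to 17.7 CPM in overexpression and 8.19 to 15.8 CPM in control, and the 4 endothelial markers to at most 0.133 CPM. Counts assigned to ribosomal RNA genes took 1.04% to 1.14% of the overexpression libraries and 0.8% to 0.852% of the controls, a share that separates the same groups, and its part in the results was not tested. Control 2 stood apart in composition, with MALAT1, a nuclear RNA, at 28.0 CPM against 118 to 475 CPM in the other libraries.

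All 10 genes had a lower mean in overexpression than in control, and in 9 of them the groups did not overlap. Of all genes tested, 7.52% did not overlap in that direction, a share printed as background only, since the genes were chosen on this contrast. The median log2 fold change was -2.47, against 0.01 over all genes tested. In edgeR with all 6 libraries the folds ran from 15.8-fold lower for BST2 to 2.04-fold lower for IFI16. In bulk RNA, fewer cells expressing a gene and less RNA per cell cannot be told apart. Together the 10 genes summed to 409, 314 and 520 CPM in overexpression 1, 2 and 3 and to 1272, 1972 and 1536 CPM in control 1, 2 and 3.

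**Figure D2:**
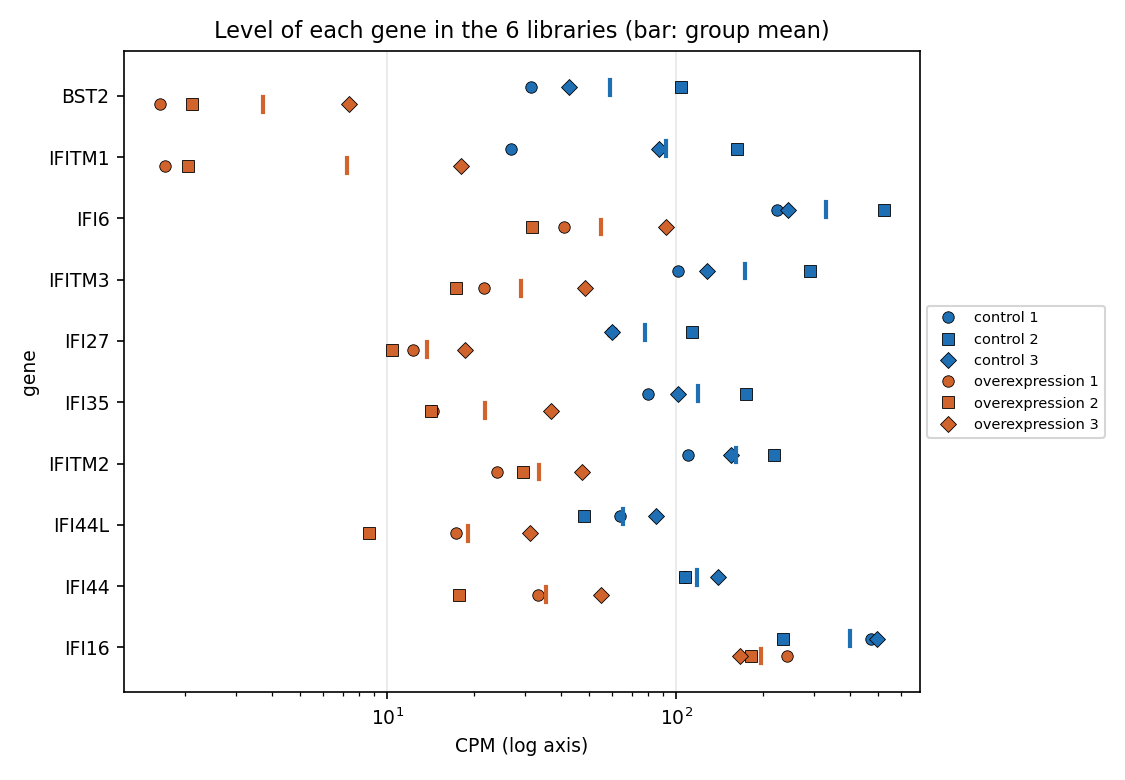
CPM of the 10 genes in each library, on a log axis, with overexpression in orange, control in blue, a marker shape per replicate number and a bar at each group mean. Only for IFI16 does an overexpression library (242 CPM) lie above a control library (234 CPM).

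The IFITM family lies in 1 cluster on chromosome 11 (GRCh38), with IFITM2 at 307631 to 315272 and IFITM1 at 313506 to 315272 on the plus strand, and IFITM3 at 319669 to 327537 on the minus strand. IFITM1 stood at 1.70, 2.03 and 18.0 CPM in overexpression 1, 2 and 3 and at 26.7, 162 and 87.3 CPM in control 1, 2 and 3. Overexpression 3 thus lay near control 1, and the remaining overexpression libraries far below, at 28 counts each. The fitted fold was 12.6-fold lower (log2 -3.66, SE 1.03), the least precise of the 10. It was at log2 -5.62 without overexpression 3 and -2.97 without control 2. IFITM2 was steadier, at 23.9, 29.4 and 47.1 CPM against 109, 218 and 154 CPM, a log2 fold change of -2.26 (SE 0.35). IFITM3, the member best known for blocking influenza virus entry, stood at 21.5, 17.2 and 48.2 CPM against 101, 290 and 127 CPM, or 5.96-fold lower (log2 -2.58, SE 0.53). In all 3 IFITM genes the highest overexpression library was overexpression 3 and the highest control was control 2, and the groups did not overlap.

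The 3 IFITM genes may not be fully separable by reads. Sharing was counted over stretches of 50 bases, a length set here, and was not measured on the reads. The coding sequences of IFITM2 and IFITM3 were 93.2% identical, against 66.0% for IFITM1 with IFITM2 and 67.1% for IFITM1 with IFITM3. Of the 50-base stretches of the main IFITM3 transcript, 14.4% occur unchanged in an annotated IFITM2 transcript and 12.9% in an IFITM1 transcript. Among its 6 annotated transcripts IFITM2 also has 1 that runs into IFITM1, so that 32.5% of IFITM1 exon bases are IFITM2 exon bases too. For IFITM1, 39.0% of 50-base stretches occur in some IFITM2 transcript but 6.2% in the main one. The way the authors assigned such reads is not stated in the labels, and the individual IFITM values are therefore uncertain. Summing IFITM2 and IFITM3 gave a log2 fold change of -2.42 (SE 0.43), and summing IFITM1 and IFITM2 gave -2.63 (SE 0.48).

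**Figure D3:**
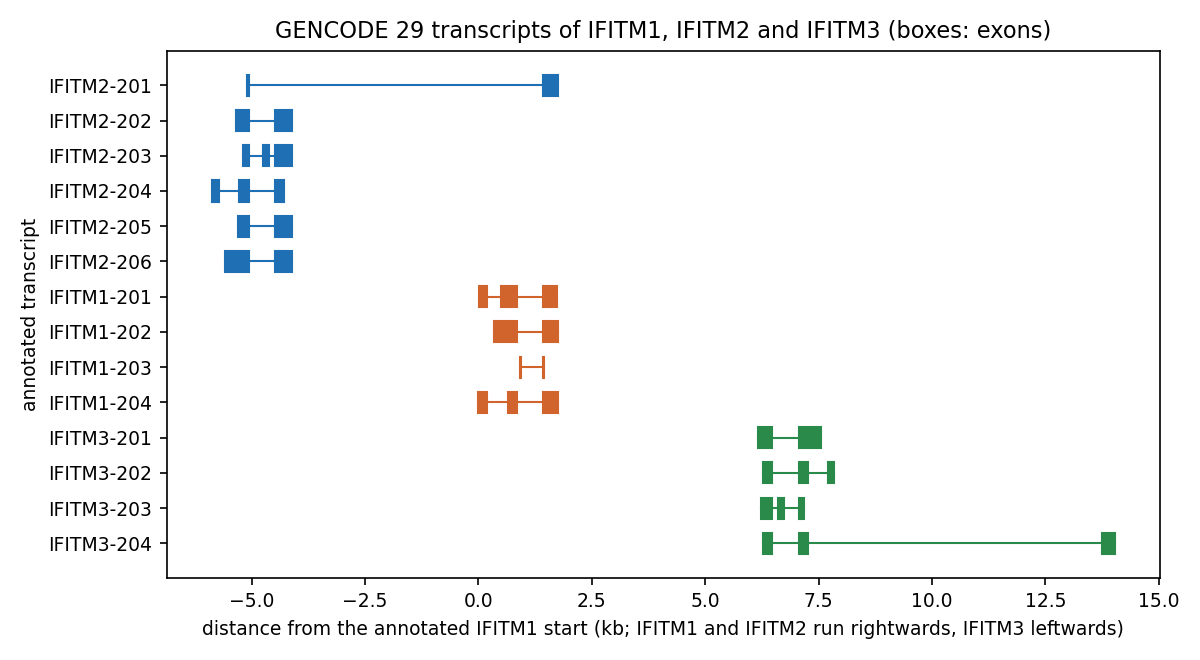
Annotated transcripts of IFITM2 (blue), IFITM1 (orange) and IFITM3 (green) in GENCODE 29, with exons as boxes and the distance from the IFITM1 start in kb on the horizontal axis. The last exon of 1 IFITM2 transcript falls on the last exon of IFITM1, while the other 5 IFITM2 transcripts end before IFITM1 begins.

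The relatives of the IFITM genes were little expressed. IFITM5, a bone protein gene in the same cluster, had 0 counts, and IFITM10, named after its values were seen, had 52 counts over the 6 libraries and was not tested. Of the 6 listed partners of IFITM3, 5 had fitted values above 0. SETD7, a methyltransferase that modifies IFITM3, was at a log2 fold change of 0.51 (SE 0.21, edgeR adjusted p 0.743), and ZMPSTE24, a membrane protease that works with IFITM proteins, at 0.20 (SE 0.16, adjusted p 0.753). KDM1A, a demethylase named after its values were seen, was at -0.03 (edgeR adjusted p 0.972). None of the 6 passed edgeR in either direction, and their median was 0.30. At an unadjusted p under 0.05 1 was higher, and the share of all genes higher at that p is not given here.

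BST2 (chromosome 19, 17402939 to 17405648, minus strand) had the largest fitted difference of the 10 in edgeR with all 6 libraries. IFITM1 was larger with the replicate block, in limma-voom and without overexpression 3. BST2 stood at 1.64, 2.11 and 7.38 CPM in overexpression 1, 2 and 3 and at 31.3, 103 and 42.4 CPM in control 1, 2 and 3. The groups stood far apart, with every control above every overexpression library. The fit gave 15.8-fold lower (log2 -3.98, SE 0.70), with log2 -4.98 without overexpression 3 and -3.30 without control 2. BISPR, a long non-coding RNA that starts 38 bases from the BST2 start on the opposite strand, was at 1, 4 and 10 counts in overexpression 1, 2 and 3, against 25, 49 and 42 in control 1, 2 and 3. These groups did not overlap either, at a log2 fold change of -2.96 (SE 0.64), though BISPR did not pass in edgeR (adjusted p 0.168). Without overexpression 3 its log2 fold change was -3.83. MVB12A, which starts 74 bases from BST2 in the same direction as BISPR and overlaps it, was at -0.47 (SE 0.27, edgeR adjusted p 0.746). Reads of BISPR and MVB12A may be split between them where they overlap.

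IFI6 and IFI27 belong to the same small family. IFI6 (chromosome 1, 27666061 to 27672218, minus strand), a protein of the endoplasmic reticulum that limits flavivirus replication, stood at 40.8, 31.8 and 92.0 CPM in overexpression 1, 2 and 3 and at 223, 522 and 244 CPM in control 1, 2 and 3 (6.00-fold lower, log2 -2.59, SE 0.50). IFI27 (chromosome 14, 94104836 to 94116698, plus strand) stood at 12.3, 10.4 and 18.5 CPM against 59.6, 113 and 60.0 CPM (5.63-fold lower, log2 -2.49, SE 0.35). Both groups stood apart for both genes, and control 2 was again the highest. Their coding sequences are 51.5% identical, and no 50-base stretch of either main transcript occurs in the other gene. The paralogs that flank IFI27, named after their values were seen, showed no such gap. Both were low, at 27 to 58 counts per library for IFI27L1 and 41 to 104 for IFI27L2. IFI27L1 was at a log2 fold change of -0.18 (SE 0.35) and IFI27L2 at -0.45 (SE 0.38), with edgeR adjusted p of 0.885 and 0.757. DDX24, a helicase gene on the far side of IFI27L1, was at 0.34 (SE 0.22, adjusted p 0.749). The difference between IFI27 and these neighbours was not tested.

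IFI44L and IFI44 lie side by side on the plus strand of chromosome 1, at 78619922 to 78646145 and 78649796 to 78664078. IFI44L, which dampens interferon responses by binding FKBP5, stood at 17.2, 8.65 and 31.1 CPM in overexpression 1, 2 and 3 and at 63.7, 47.9 and 84.8 CPM in control 1, 2 and 3 (3.44-fold lower, log2 -1.78, SE 0.45). IFI44 stood at 33.2, 17.7 and 54.9 CPM against 107, 107 and 139 CPM (3.34-fold lower, log2 -1.74, SE 0.38). These neighbours moved alike: overexpression 2 was the lowest library for both and control 3 the highest. Control 2, the highest control for 7 of the 10 genes, was the lowest control for both, though level with control 1 for IFI44. Their coding sequences are 62.6% identical and no 50-base stretch is shared. FKBP5, named after its values were seen, was lower without overlap, at -0.48 (SE 0.22, edgeR adjusted p 0.746).

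IFI35 (chromosome 17, 43006725 to 43014456, plus strand) stood at 14.4, 14.2 and 36.8 CPM in overexpression 1, 2 and 3 and at 79.7, 174 and 101 CPM in control 1, 2 and 3, or 5.43-fold lower (log2 -2.44, SE 0.47). Its binding partner NMI was also lower without overlap, at 47.8 ± 7.59 against 116 ± 12.4 CPM (SD, n = 3 each). The log2 fold change of NMI was -1.27 (SE 0.20), and it fell short of the edgeR threshold (adjusted p 0.0779). The genes on either side of IFI35, named after their values were seen, were RPL27 at -0.49 (SE 0.35) and VAT1 at 0.16 (SE 0.23), with edgeR adjusted p of 0.749 and 0.84.

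IFI16 (chromosome 1, 158999968 to 159055155, plus strand) behaved unlike the rest. It stood at 242, 181 and 166 CPM in overexpression 1, 2 and 3 and at 470, 234 and 496 CPM in control 1, 2 and 3, or 2.04-fold lower (log2 -1.03, SE 0.32). It was the 1 gene in which overexpression 3 was the lowest library and control 2 fell among the overexpression values. Without control 2 the log2 fold change was -1.30 (SE 0.21). Its paralogs AIM2, PYHIN1 and MNDA, the last 2 named after their values were seen, had 5, 2 and 0 counts over all libraries. TMEM173, the older symbol of STING1, which passes the DNA signal on, was at 0.480 ± 0.0874 CPM in overexpression and 1.48 ± 0.367 CPM in control (SD, n = 3 each). CGAS, another DNA sensor, was at -0.51 (SE 0.21), and neither gene passed in edgeR (adjusted p 0.29 for TMEM173 and 0.743 for CGAS).

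**Figure D4:**
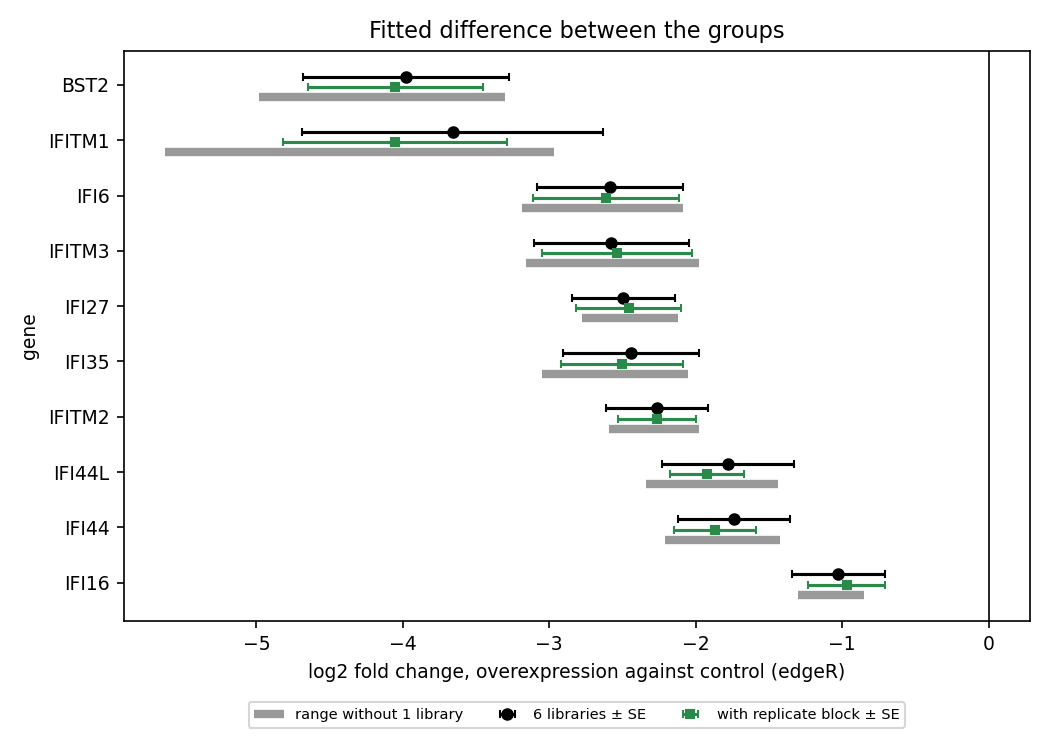
Log2 fold changes of the 10 genes, overexpression against control, from edgeR with all 6 libraries (black, ± SE), with the replicate number as a block (green, ± SE) and as the range over the 6 fits without 1 library (grey). All lie below 0. The black points run from -3.98 for BST2 to -1.03 for IFI16, and the widest grey range is that of IFITM1, from -5.62 to -2.97.

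In edgeR, adjusted over the 15631 genes, 0 of the 10 passed, while all 10 had an unadjusted p under 0.05. The backgrounds are 0.102% of genes called lower by edgeR and 4.41% lower at an unadjusted p under 0.05, and nothing is read from these shares because the contrast chose the genes. With the replicate block 2 passed, IFITM2 and IFI44L, where 0.441% of all genes were called lower. DESeq2 called 8 (background 1.57%), all but IFITM1 and IFI16, and limma-voom called 0 (background 0.122%). Leaving out the library labelled overexpression 3 gave 7 calls (background 0.902%), and leaving out any other library gave 0. The backgrounds of those fits were 0.00627% without overexpression 1, 0.118% without control 1 and 0% without overexpression 2, control 2 or control 3. Without the filter on low counts IFITM2 and IFI27 were called (background 0.251%).

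The differences were present in each same-numbered pair of libraries. All 30 pairwise log2 differences, 10 genes in 3 pairs, were below 0. For the 9 genes whose groups did not overlap, that sign was fixed whatever the pairing, so the count adds nothing there. Only IFI16 could have differed, and it was at -0.96, -0.37 and -1.58 in pairs 1, 2 and 3. Pair 2 had the largest difference for 9 of the 10 genes, from -2.45 for IFI44L to -6.23 for IFITM1, and for IFI16 it had the smallest, at -0.37. Pair 3 had the smallest difference for those 9 genes, from -1.34 for IFI44 to -2.50 for BST2, while for IFI16 it had the largest, at -1.58. The pairs thus differed in size and not in direction.

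Within the groups the genes fell into sets by their deviations from the group means. Those outside the largest set, IFI44, IFI44L and IFI16, also had the smallest fitted log2 differences, at -1.74, -1.78 and -1.03. IFITM1, IFITM2, IFITM3, BST2, IFI6, IFI27 and IFI35 are the 7 genes whose highest control was control 2, a set seen in the data and not chosen beforehand. Their deviations from the group means correlated at 0.83 to 0.99 over the 21 gene pairs. Grouping genes by a shared highest control itself favours high correlation among them. IFI44 and IFI44L correlated with each other at 0.97 and with the 7 genes at 0.27 to 0.65. IFI16 correlated with the 7 genes at -0.82 to -0.63. These are descriptions over 6 libraries, which all genes share, and no p is attached.

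Values in control 2 also differed with transcript length. The 7 genes that were highest in control 2 have main transcripts of 0.719 to 1.23 kb. Those of IFI44, IFI16 and IFI44L measure 1.69, 2.73 and 5.87 kb. Control 2 minus the mean of controls 1 and 3 was 0.75 to 1.75 on the log2 scale for the 7, and -0.19, -1.05 and -0.62 for IFI44, IFI16 and IFI44L. Over all 12776 protein-coding genes tested, the median of that difference fell from 0.60 for transcripts under 1 kb to -0.31 for those over 5 kb. The median log2 fold change between the groups ran from -0.27 under 1 kb to 0.11 over 5 kb. Without control 2 the 10 log2 fold changes ran from -3.30 for BST2 to -1.30 for IFI16, and that of IFITM3 was -1.98. The part of transcript length in these values, within or between the groups, was not tested.

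**Figure D5:**
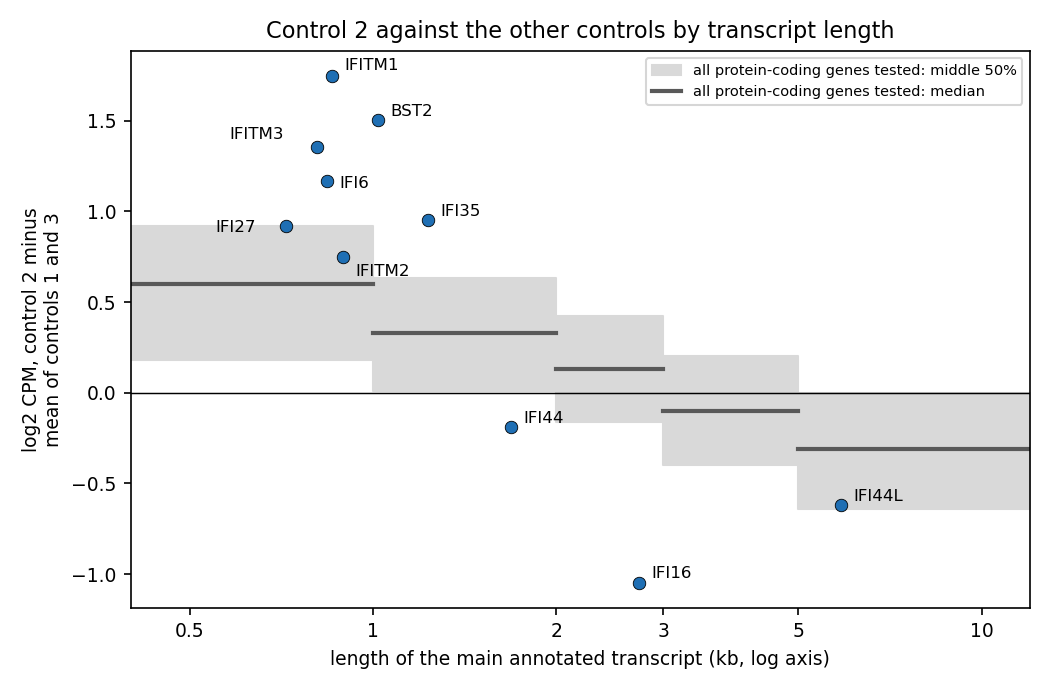
Difference in log2 CPM between control 2 and the mean of controls 1 and 3 against the length of the main annotated transcript (kb, log axis). Blue points are the 10 genes, and grey steps give the median and middle 50% of all protein-coding genes tested. Of the 7 genes at the upper left 5 lie above the grey boxes, and IFI44 and IFI16 lie below theirs.

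Scaled per kb of the main transcript, so that genes can be set beside each other, IFI6 was the most abundant of the 10 in control at 392 ± 199 CPM per kb (SD, n = 3). IFITM3, IFITM2, IFI16, IFI27, IFITM1, IFI35, IFI44 and BST2 followed, at 214, 180, 146, 108, 108, 96.2, 69.8 and 57.9 CPM per kb, and IFI44L came last at 11.1 ± 3.15 CPM per kb. Only the last step, from BST2 to IFI44L, exceeded the larger SD of its 2 neighbours, so this rule does not resolve the order above it. The rule ignores that the genes share libraries, and IFI6 ranked 1 in each of control 1, 2 and 3. In overexpression IFI16 came first at 71.8 ± 14.8 CPM per kb, next to IFI6 at 65.2 ± 38.6, and BST2 and IFI44L came last at 3.64 ± 3.13 and 3.23 ± 1.93 (SD, n = 3 each). There no step between neighbours exceeded the larger SD. The rank of a gene with many transcripts depends on the length used, and IFI27 fell from 5 to 9 in control when all annotated exons were counted.

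The pathway list was counted by role, and differences between roles were not tested. Of 33 listed pathway genes, all tested, 3 fell and 0 rose in edgeR, and 10 fell with the replicate block, with a median log2 fold change of -0.79. Over all 15631 genes, 0.102% were called lower in edgeR and 0.441% with the block, and 4 genes were called higher in edgeR. The 3 were ligands, the type III interferons IFNL1, IFNL2 and IFNL3, at -3.19 (SE 0.36), -3.73 (SE 0.33) and -3.60 (SE 0.42), with edgeR adjusted p of 0.0291, 0.0165 and 0.0327. Reads of IFNL2 and IFNL3, close copies of each other, may be split between them. Each of the 3 calls was lost without overexpression 1, overexpression 2, control 2 or control 3, with log2 values from -3.91 to -2.97. IFNB1, interferon beta, was at -3.13 (SE 0.44) and did not pass in edgeR without the block (adjusted p 0.0667). It passed with the block (edgeR adjusted p 0.0312), without overexpression 3 (0.0399), with no filter (0.014) and in DESeq2 (3.523e-09).

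The median log2 fold change was 0.01 over the 6 receptors and -0.25 over the 3 kinases. None of the 6 receptor genes passed in either direction with or without the block, and 1 was higher at an unadjusted p under 0.05. Of the 3 kinases none passed either, and 1 was lower at an unadjusted p under 0.05. Over all genes tested 4.41% were lower at that edgeR p, and the share that was higher is not given here. The 8 transcription factors all had fitted values below 0, with a median of -1.18. STAT2, which binds the ISRE in a complex with IRF9, was at -1.88 (SE 0.48) and did not pass in edgeR without the block (adjusted p 0.295). It passed with the block (edgeR adjusted p 0.0367) and in DESeq2 (0.00463). IRF9 was at -0.99 (SE 0.29) and did not pass (edgeR adjusted p 0.457, and 0.355 with the block). IRF1, a factor that binds a related element, was at -1.75 (SE 0.26, edgeR adjusted p 0.0668, and 0.0362 with the block).

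Among feedback genes and sensors, 2 of 5 and 2 of 6 passed with the block (background 0.441% lower) and 0 without it (background 0.102% lower). USP18, which removes ISG15 from proteins and dampens receptor signalling, was at -2.23 (SE 0.37, edgeR adjusted p 0.0887, and 0.0451 with the block). IFIH1, a sensor of double-stranded RNA, was at -2.12 (SE 0.35, edgeR adjusted p 0.0874, and 0.0304 with the block). ISG15, a ubiquitin-like protein, stood at 57.1 ± 39.5 against 449 ± 249 CPM (SD, n = 3 each), at -2.97 (SE 0.57, edgeR adjusted p 0.124). Without overexpression 3 it was at -3.71 and passed (edgeR adjusted p 0.0314), and it also passed in DESeq2 (1.927e-06). The list was drawn up with earlier results of these data known, so its counts are no independent evidence of direction.

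Of 19 neighbours and paralogs 12 could be tested, and none passed edgeR in either direction with or without the block. Among them 1, BISPR, was lower at an unadjusted p under 0.05 (background 4.41%). Their median log2 fold change was -0.09. B4GALNT4, a glycosyltransferase gene near the IFITM cluster, was at 8.97 ± 8.44 against 18.0 ± 6.36 CPM (SD, n = 3 each), with overlap between the groups (edgeR adjusted p 0.746). The overlap came from overexpression 3, at 18.7 CPM, with overexpression 1 and 2 at 4.12 and 4.07 CPM and control 1, 2 and 3 at 11.6, 24.3 and 18.0 CPM. Without overexpression 3 the log2 fold change was -2.13 (SE 0.36) and did not pass (edgeR adjusted p 0.0597). Of 17 partner and modifier genes 16 were tested and none passed edgeR, with a median of 0.03. At an unadjusted p under 0.05, 3 were lower (background 4.41%) and 1 was higher, for which the background is not given here.

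The genes most like the mean profile of the 10 over the 6 libraries were UBE2L6, TMEM140, TAP1, PLEKHA4 and TRIM22. Their Pearson correlations with it were 0.998, 0.997, 0.997, 0.997 and 0.996, over 6 libraries that all genes share, and their log2 fold changes were -2.59, -2.26, -2.17, -4.13 and -3.11. The profile they followed stood at -0.94, -1.17 and -0.32 standard units in overexpression 1, 2 and 3 and at 0.60, 0.98 and 0.85 in control 1, 2 and 3. Overexpression 3 was thus nearest to the controls without reaching them.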

How the data were processed

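Whole-number counts per gene were deposited by the authors beside FPKM values for each of the 6 libraries. FastQC, HISAT2 and GRCh38 are named, without versions, per the submitters' processing notes, while the counting program is not given in the sources used here, nor is its strand setting. The deposited FPKM values were used for no result. Per the labels' protocols the libraries were biological replicates from a TruSeq RNA kit, which does not mark strand; p-values measure the spread between these libraries.

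The test was that of edgeR 4.0.16, run in R 4.3.3 on the deposited counts (TMM, filterByExpr, robust quasi-likelihood, two-sided, Benjamini-Hochberg over 15631 genes, threshold 0.05). SEs are the log2 fold change over the square root of F, and log2 CPM used a prior count of 2. The fit was first tested on simulated data, where 26.7%, 89.3%, 98.7% and 96% of 2-, 4-, 8- and 16-fold changes were recovered. The simulated data held no outlying library and no pairing, so these shares may not hold for the real libraries. Replicates differed by 26.2 to 94.6 in chi-square per degree of freedom, above sampling noise. Libraries with the same number deviated together from their group means (r = 0.35, 0.16 and 0.29, all over 0.1). Libraries with different numbers gave r from -0.34 to 0.12, the highest, for overexpression 2 with control 1, also over 0.1. The main edgeR fit held no replicate term. Replicate numbers were used as pairs only in the replicate block and in the same-numbered differences. The labels' protocols also speak of SNHG5 and vector cells in pairs. Also run were a replicate block, fits lacking each library in turn, DESeq2 1.42.0, limma-voom (limma 3.58.1), other size factors, no filter, a mean of at least 5 CPM, and summed IFITM counts. All 10 gene positions equalled GENCODE 29. The main transcript is the best-supported, then longest, coding one, and coding sequences were aligned with Biopython 1.88, since no protein sequences were used here.

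The 10 genes and the lists were chosen with earlier results of these data known. Named besides them by rule are genes past the threshold, up to 4 others per list with the smallest p, 10 genes fixed by symbol and the 5 most similar genes. Cell type markers and some further list genes are also named. Most of these further list genes are marked as named after their values were seen. Summing IFITM1 with IFITM2 and the analysis by transcript length were added after the data were seen. Some genes of the lists are not reported here.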

Additional observations from a re-analysis of the deposited data

How the results depend on the processing

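The 10 genes stayed lower in overexpression in every alternative run. Of 124 results for them 105 stayed on their side of the threshold and 19 gained a call. Another 238 results covered list genes named by threshold, smallest p or symbol. Of these 202 stayed, 24 gained a call and 12, all of IFNL1, IFNL2 or IFNL3, lost one. SNHG5 stayed uncalled, at 0.39 to 0.97 without 1 library. With the replicate block 69 genes were lower in place of 16, 2 of the 10 in place of 0 and 10 pathway genes in place of 3. The block, which pairs the libraries, changed the calls of no other list. With no filter the numbers were 72, 2 and 9, and 1 partner gene, NMI, was called. With DESeq2 246 genes were lower and 20 higher in place of 4, and 8 of the 10, 15 pathway genes, 1 neighbour (BISPR) and 1 partner (NMI) were called. Without 1 library the numbers ran from 0 to 144 lower genes, 0 to 20 higher genes, 0 to 7 of the 10 and 0 to 10 pathway genes. The neighbour and partner lists had 0 lower genes in all 6 of these fits. The highest of these counts came without overexpression 3. The causes were not tested. The 10 genes had 2922 to 28037 counts each over the 6 libraries, but IFITM1 had 28 and BST2 27 in overexpression 1. Counting error weighs more on such low counts, and the part of depth in their spread between libraries was not tested.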
